A study of Mus musculus with 6 samples.

Results

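Complement is a set of blood and cell-surface proteins that marks microbes and dying cells for uptake and lyses membranes. The classical pathway starts when C1q, built from the chains of C1qa, C1qb and C1qc, binds a target, C4 and C3 are then cleaved and deposited, and an alternative pathway driven by factor B and stabilised by properdin amplifies C3 deposition. Host cells are protected by membrane regulators such as CD55, which dissociates the C3-cleaving enzymes, and CD59, which blocks the membrane pore. Macrophages are a main source of C1q in tissues, and granulocytes are known to store properdin.

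The 9 complement components described here are C1qa, C1qb, C1qc, C3, C4b, Cfb, Cfp, Cd55 and Cd59a. They were taken by gene symbol from the deposited table of 16254 genes, and all 9 were listed. Of these, 8 passed the filter on low counts and were tested among 13498 genes; Cfb did not pass.

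The cells were eosinophils grown in vitro from the bone marrow of C57BL/6 mice aged 6 to 12 weeks, with stem cell factor and FLT3 ligand first and IL-5 afterwards, which both groups share. For 24 h, 3 biological replicates received extracellular vesicles (EVs) isolated by size exclusion chromatography from the medium of activated TH2 cells, and 3 received sham material, which was unconditioned medium taken through the same isolation. The sex of the marrow donors is not given in the sources used here, and the labels do not say whether the replicates came from separate mice. The comparison asks what 24 h with TH2 cell EVs did to eosinophil transcripts. Libraries were poly(A) selected, and their totals ran from 23697620 to 37874426 estimated counts. Eosinophil transcripts were abundant in every culture. Prg2, the eosinophil major basic protein, was at 558782 to 717423 normalized counts in the sham cultures and 712848 to 777513 in the EV cultures. The summed level of 9 T cell markers stayed between 108 and 251. Not every other list was so low: in sham cultures 11 macrophage markers summed to 91965 to 145101 and 9 neutrophil markers to 17885 to 20031. These values therefore do not show that the cultures held eosinophils alone. Values below are normalized counts, that is, estimated counts divided by a size factor for each library, and fold changes are on the log2 scale with standard errors (SE), positive where EV cultures were higher.

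The components did not move together. Transcripts of the 3 C1q chains fell with EVs, those of C4b, Cfp and Cd55 rose, and C3 and Cd59a did not pass the test, as edgeR's quasi-likelihood test called them at an adjusted p under 0.01. Among all genes tested, 23.7% passed in either direction, 12.1% higher with EVs and 11.6% lower, and the 3 EV and 3 sham samples did not overlap for 49.6%. Of the 8 components tested, 7 did not overlap between groups. Their median log2 fold change was -0.16, beside -0.014 for all genes. The plot of the components by culture shows every value.

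**Figure D1:**
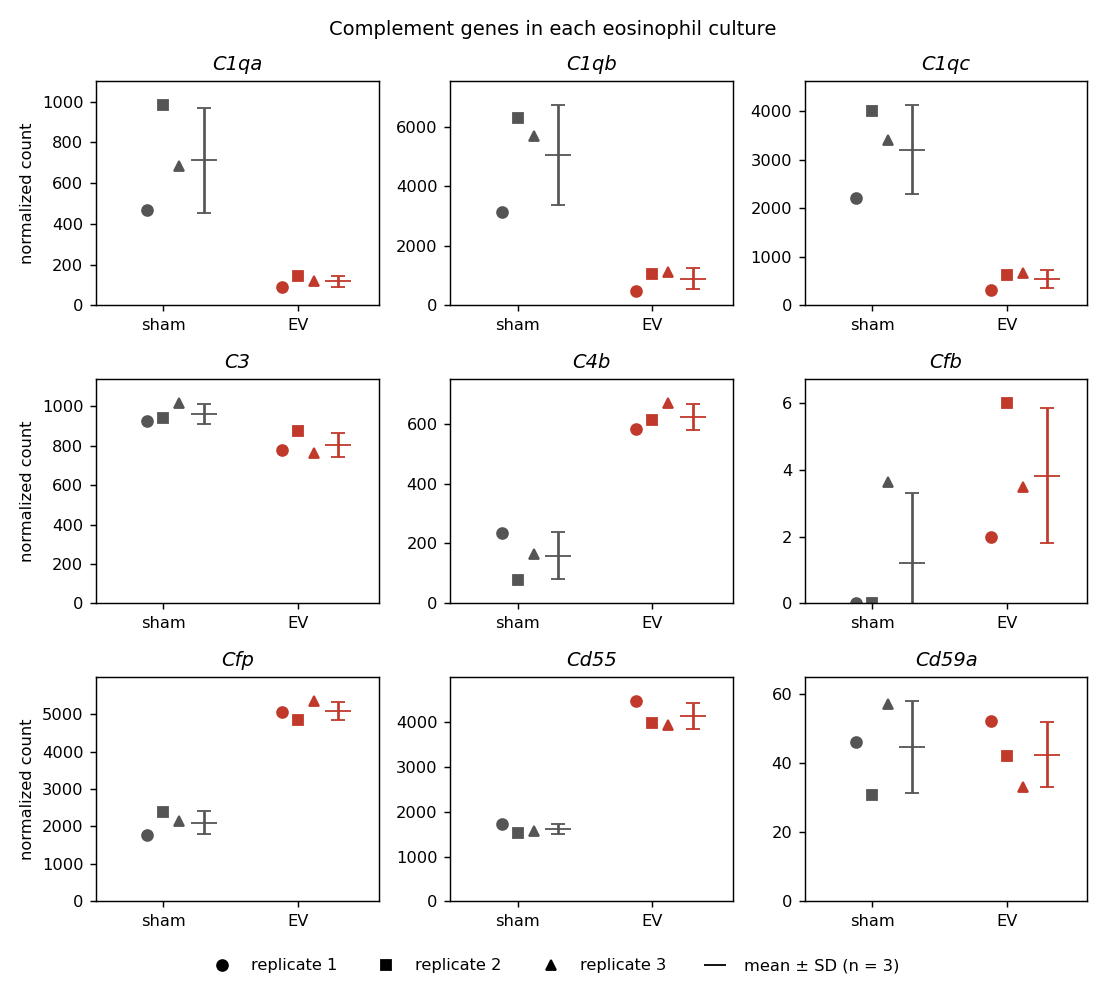
Normalized counts (vertical axis, from 0) of the 9 components in the 3 sham and 3 EV cultures; marker shapes give the replicate number, and the bars show mean ± SD (n = 3), with the lower bar of Cfb in sham cultures ending at the axis. C1qa, C1qb and C1qc were lower in every EV culture than in any sham culture, C4b, Cfp and Cd55 were higher, and Cfb and Cd59a overlapped.

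C1qa, C1qb and C1qc, whose products assemble into the recognition molecule of the classical pathway, lie side by side on the minus strand of chromosome 4 in the GRCm38 build. C1qb spans chr4:136880129-136886187, C1qc chr4:136889804-136893065 and C1qa chr4:136895917-136898803. None of the 31-base words in their exons occurs in another annotated transcript, so no other annotated gene could take or give reads of that length. The 250 bases before the C1qb start site (RefSeq, GRCm38.p6, minus strand, chr4:136886201-136886450) are shown because this gene had the highest level of the trio, with a match to the core letters of the myeloid factor PU.1 in capitals.
C1qb: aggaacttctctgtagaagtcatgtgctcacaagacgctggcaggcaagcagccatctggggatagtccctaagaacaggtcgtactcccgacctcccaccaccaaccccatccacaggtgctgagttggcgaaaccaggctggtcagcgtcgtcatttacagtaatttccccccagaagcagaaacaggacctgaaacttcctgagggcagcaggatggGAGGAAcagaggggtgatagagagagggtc
The same letters, GAGGAA on either strand, were found once each in the matching windows of C1qc and of Cd59a, which did not pass the test, and 23.3% of 32851 promoters hold them. A match describes the letters only.

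C1qb was at 3129, 6296 and 5702 normalized counts in sham cultures 1, 2 and 3 and at 497, 1065 and 1134 in EV cultures 1, 2 and 3. Every EV culture lay below every sham culture, and culture 1 was the lowest of its group on both sides. Its log2 fold change was -2.48 (SE 0.32, adjusted p = 0.00018, edgeR), which is 5.58-fold lower with EVs.

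C1qc showed 2209, 4011 and 3417 normalized counts in the sham cultures and 324, 630.0 and 667 in the EV cultures. The order of the cultures was that of C1qb, and the groups were again apart. The log2 fold change of C1qc was -2.56 (SE 0.27, adjusted p = 5.4e-05, edgeR), or 5.91-fold lower.

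C1qa, the least abundant chain, was at 467, 983 and 684 normalized counts in the sham cultures and 89.9, 147 and 118 in the EV cultures. Its log2 fold change was -2.58 (SE 0.28, adjusted p = 6.0e-05, edgeR), or 5.98-fold lower. The 95% intervals of the 3 chains overlapped widely, at -3.21 to -1.96 for C1qa, -3.19 to -1.77 for C1qb and -3.18 to -1.95 for C1qc.

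The proportions of the chains to each other differed less than their levels. Counted per kilobase of exon, C1qb made up 64.3% to 69.4% of the trio in all 6 cultures, with a mean of 66.1% ± 2.03 in sham and 67.1% ± 2.61 in EV cultures (SD, n = 3). C1qc contributed 24.1% ± 1.33 in sham and 23.0% ± 0.505 in EV cultures, and C1qa 9.78% ± 1.10 and 9.83% ± 2.29. The log2 ratio of C1qb to C1qa was 2.83 ± 0.20 in sham and 2.86 ± 0.40 in EV cultures, a difference of 0.036 (exact permutation test, two-sided, p = 1.0). The ratio of C1qc to C1qa differed by -0.048 (exact permutation p = 0.9) and that of C1qc to C1qb by -0.084 (exact permutation p = 0.5). With 3 cultures against 3, this test cannot go below 0.1, so it could not have called a shift in chain proportions of any size.

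Among 10452 other genes with a mean of at least 100 normalized counts, the 5 whose log2 values followed the mean of the trio most closely over the 6 cultures were Fabp5, Pgrmc1, Scarf1, Rapgef5 and Slc6a8. Pearson's r ran from 0.9978 to 0.9994, a description in which the cultures share the difference between the groups. Fabp5, a fatty acid binding protein, was at 4950 to 9601 normalized counts in sham and 645 to 1327 in EV cultures, also lowest in culture 1 of each group. Slc6a8, a creatine transporter, was at 1410.2 to 3076 in sham and 215 to 358 in EV cultures. Pgrmc1, a haem-binding membrane protein, changed far less (log2 fold change -0.57, adjusted p = 0.0015, edgeR).

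Macrophage markers moved with the C1q chains. Of 12 markers, 11 were in the table and tested. Of these, 8 fell, 1 rose and 2 did not pass, beside 11.6% lower and 12.1% higher among all genes tested. The 8 were Csf1r, Cd68, Mertk, Marco, Msr1, Trem2, Apoe and Lyz2, and the one that rose was Adgre1, which mouse eosinophils also express. The median log2 fold change of the list was -2.13. Its summed level was 91965 to 145101 normalized counts in sham and 45444 to 52629 in EV cultures, and no marker was at 0 in all cultures. Lyz2, lysozyme, was the most abundant in sham cultures, at 38594, 70198 and 69799 normalized counts, and was at 4567, 6755 and 7103 in EV cultures. In EV cultures Adgre1 was the most abundant, at 32082, 33533 and 32670. Mertk, a receptor for the uptake of dying cells, was at 770, 1586 and 1394 in sham and 87.9, 200 and 228 in EV cultures, so that sham culture 1 and EV culture 1 were again the lowest of their groups. The C1q sum was 6.31%, 7.78% and 7.0% of the macrophage marker sum in the sham cultures and 2.00%, 3.50% and 3.69% in the EV cultures. That sum includes Adgre1, which was at 21096 to 21680 normalized counts in sham and 32082 to 33533 in EV cultures. These shares therefore do not compare C1q with the markers that fell. The part of macrophages in the fall of C1q was not tested. Normalized counts are relative to the whole library, so a smaller share of cells of a type and a smaller share of RNA from each cannot be told apart. The map of C1q chains and macrophage markers gives each culture's value.

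**Figure D2:**
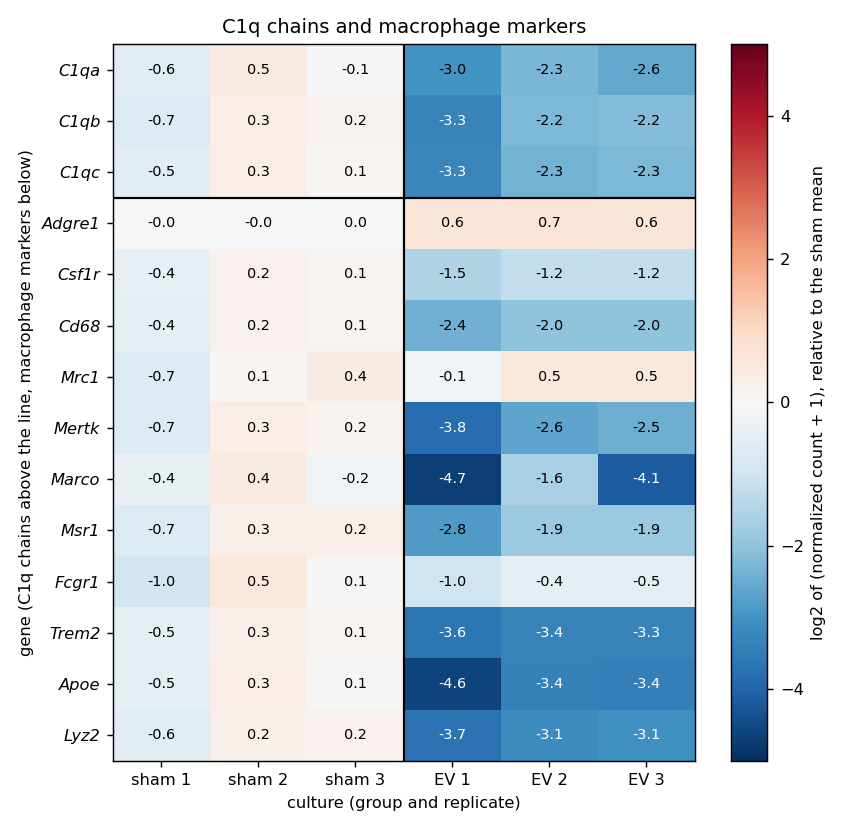
Log2 of (normalized count + 1) relative to the sham mean, by culture (horizontal) and gene (vertical), with the C1q chains above the line and 11 macrophage markers below it. Blue marks values under the sham mean: the C1q chains and the 8 markers that fell lie under it in all 3 EV cultures, while Adgre1 was above the sham mean in all 3 EV cultures.

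C3 is the component on which all pathways converge. It was at 925, 940.0 and 1016 normalized counts in sham cultures and 778, 875 and 763 in EV cultures. The highest EV culture lay under the lowest sham culture, but the difference was small: the log2 fold change was -0.25 (SE 0.093, 95% interval -0.46 to -0.044), and its adjusted p of 0.060 in edgeR did not pass. With scaling by library size alone, which shifted the median of all genes to -0.163, C3 read -0.40 and passed (adjusted p = 0.0085, edgeR).

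C4b encodes a C4 protein, the substrate of activated C1. Its counts were 235, 78.4 and 165 in sham cultures and 583, 612 and 668 in EV cultures. The EV cultures were tightly grouped (621 ± 43.2, SD, n = 3) and the sham cultures were spread (159.6 ± 78.5, SD, n = 3). The log2 fold change was 1.95 (SE 0.30, 95% interval 1.27 to 2.63, adjusted p = 0.00070, edgeR), or 3.85-fold higher. Of the 31-base words in the C4b exons, 48.3% also occur in C4a, its near copy, for which no row was analysed here, so the value may hold reads of both. On the stromal marker list, 1 of 5 tested rose (Pecam1) and 1 fell (Col1a2, log2 fold change -2.91, adjusted p = 0.0066, edgeR). Among all genes tested, 12.1% rose and 11.6% fell. Col1a1 (-2.74, adjusted p = 0.030) and Col3a1 (-2.27, adjusted p = 0.042) did not pass, though neither overlapped between groups. All 3 collagens passed with a replicate block, in limma and without EV replicate 1. Without EV replicate 1 the log2 fold changes were -4.95 for Col1a1, -4.465 for Col1a2 and -4.33 for Col3a1. Col1a2 lost its call without any one of the other cultures (adjusted p from 0.013 to 0.032, edgeR) and in DESeq2 (0.011). The summed level of the stromal list was lower with EVs, at 17115 to 26531 normalized counts in sham and 10414.5 to 15850 in EV cultures. Pecam1 made up most of that sum in EV cultures, at 9752 to 10261, beside 6253 to 6949 in sham cultures. Col1a1 was at 4587 to 11351 in sham cultures and at 3348, 173 and 382 in EV cultures 1, 2 and 3.

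Cfb encodes factor B, the catalytic subunit of the alternative pathway's C3-cleaving enzyme. It had 0, 0 and 3 estimated counts in the sham cultures and 2, 7 and 3.92 in the EV cultures. These totals of 3 and 13 rounded counts gave a depth-corrected ratio of 3.59, with an exact 95% interval of 0.987 to 19.6 that covers counting error only. A difference in Cfb was not detectable at this depth, and 75.5% of its 31-base words also occur in the overlapping readthrough transcript Gm20547.

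Cfp encodes properdin, the stabiliser of the same enzyme, and was the most abundant of the 9 transcripts per kilobase in EV cultures. It was at 1781, 2375 and 2148 normalized counts in sham and 5042, 4851 and 5349 in EV cultures. The groups were far apart, with the lowest EV culture above the highest sham culture. The log2 fold change was 1.28 (SE 0.10, 95% interval 1.05 to 1.5, adjusted p = 7.0e-06, edgeR), which is 2.42-fold higher. Cfp lies on the minus strand of the X chromosome (chrX:20925454-20931555, GRCm38), and none of its 31-base words is shared.

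Cd55 encodes the decay-accelerating membrane regulator. It was at 1730.1, 1526 and 1558 normalized counts in sham and 4464, 3973 and 3938 in EV cultures. Its log2 fold change had the smallest SE of the 8 components tested, with an estimate of 1.36 (SE 0.079, 95% interval 1.19 to 1.54, adjusted p = 1.0e-06, edgeR), or 2.57-fold higher. Of its 31-base words, 11.2% occur in the copy Cd55b, which was at 0 to 45.4 normalized counts and did not pass (adjusted p = 0.32, edgeR). Cd55 lies at chr1:130439027-130462744 on the minus strand (GRCm38), and the noncoding gene Gm16083 overlaps its exons on the other strand.

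The 250 bases before the start sites of Cfp (chrX:20931556-20931805) and Cd55 (chr1:130462745-130462994), both on the minus strand in RefSeq GRCm38.p6, are shown because these genes rose with the least spread between cultures.
Cfp: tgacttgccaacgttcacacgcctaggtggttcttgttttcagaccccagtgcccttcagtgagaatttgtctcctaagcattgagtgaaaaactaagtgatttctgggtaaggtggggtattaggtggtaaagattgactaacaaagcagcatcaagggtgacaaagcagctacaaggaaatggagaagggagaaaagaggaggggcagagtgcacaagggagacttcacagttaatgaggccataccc
Cd55: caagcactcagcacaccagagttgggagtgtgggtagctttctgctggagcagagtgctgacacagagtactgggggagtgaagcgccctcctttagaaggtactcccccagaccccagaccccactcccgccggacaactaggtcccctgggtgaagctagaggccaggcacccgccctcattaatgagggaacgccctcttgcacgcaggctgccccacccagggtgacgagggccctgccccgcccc
Each window was searched on both strands for 4 motifs, and neither held one, so no letters are in capitals. The general STAT motif TTCNNNGAA and the STAT6 motif, which has 1 more free base between the same half-sites, were in neither window nor in that of C1qb, C1qc, C3 or Cd59a, beside 7.02% and 5.85% of all promoters. The IRF motif, a pair of GAAA blocks with 2 free bases between them, is held by 2.98% and was in the window of Cd59a alone of these 6. The missing matches say only that these letters are not in these windows.

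Cd59a encodes the regulator that blocks the membrane pore. It was at 46.0, 30.6 and 57.1 normalized counts in sham cultures and 51.9, 42.0 and 33.1 in EV cultures, and the groups overlapped. The log2 fold change was -0.076 (SE 0.45, adjusted p = 0.92, edgeR), and its 95% interval of -1.07 to 0.92 does not reach the 1.36 of Cd55 on either side. The sign turned without sham replicate 3 (0.15) and without EV replicate 3 (0.081). Its near copy Cd59b was at 0 to 11.7 normalized counts and was not tested.

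Markers of the granulocyte lineages moved in different directions. Beside the counts below, 12.1% of all genes tested rose with EVs and 11.6% fell, and the lists were not tested as sets. Of 10 eosinophil markers, 7 rose and none fell, with a median log2 fold change of 0.71. Of 7 mast cell and basophil markers tested, 5 rose, and the summed level of that list was 6262 to 7831 normalized counts in sham and 13225 to 15620.5 in EV cultures. Of 9 neutrophil markers tested, 5 fell (S100a8, S100a9, Ltf, Camp and Csf3r) and 1 rose (Ly6g), with a median of -0.90 and a summed level of 17885 to 20031 in sham and 15536 to 19168 in EV cultures. The part of these lineages in the changes of the C1q chains, Cfp, Cd55 and C4b was not tested.

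Levels between genes can be set side by side only per length. Per kilobase of annotated exon, the order in sham cultures began with C1qb at 4634 ± 1547, C1qc at 1664 ± 476 and Cfp at 1210.5 ± 173 normalized counts (SD, n = 3). C1qa at 684 ± 249, Cd55 at 331 ± 22.6 and C3 at 187 ± 9.51 came next. C4b at 28.0 ± 13.8, Cd59a at 24.6 ± 7.34 and Cfb at 0.430 ± 0.745 stood lowest. The neighbours C1qc and Cfp overlapped between cultures, as did C4b and Cd59a; the other neighbours did not. In EV cultures the order began with Cfp at 2926 ± 145 per kilobase, followed by Cd55 at 850.0 ± 60.6 and C1qb at 826 ± 321, which overlapped. C1qc at 279.8 ± 97.7 overlapped with C3 at 157 ± 11.8, and C1qa at 114 ± 27.2 with C4b at 109 ± 7.59. Cd59a at 23.4 ± 5.21 and Cfb at 1.35 ± 0.716 were again lowest. A classical pathway chain therefore led the list in sham cultures and properdin led it in EV cultures, as the plot of levels per kilobase shows.

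**Figure D3:**
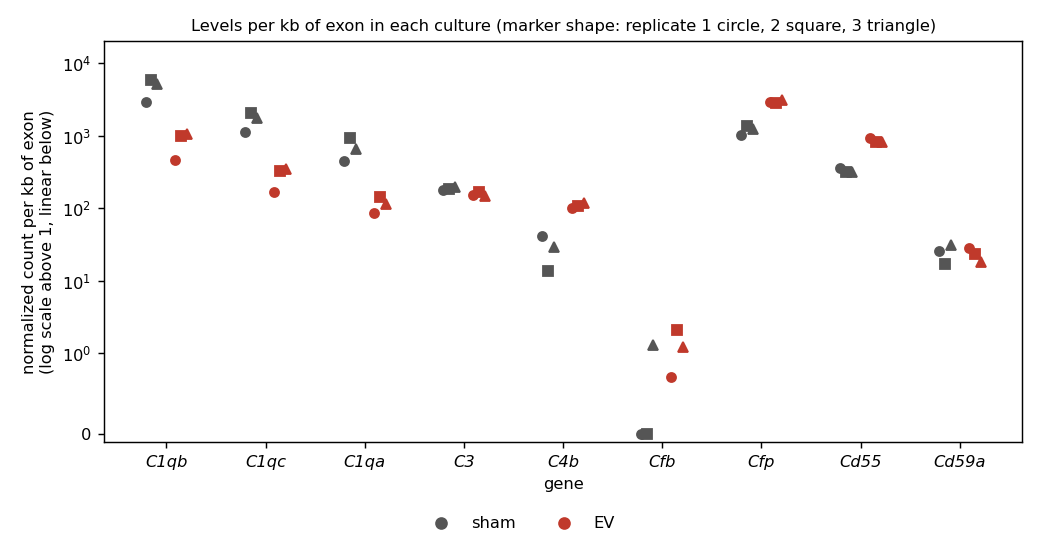
Normalized counts per kilobase of exon (vertical axis, logarithmic above 1 and linear below) of the 9 components in each sham (grey) and EV (red) culture. C1qb, C1qc and C1qa shifted down, C4b, Cfp and Cd55 shifted up, and Cfb stayed at or under 2.12 in every culture.

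Of 44 other genes of the complement pathways, their regulators and receptors, 29 were in the table and 15 were not analysed here; 21 were tested. With EVs 4 of them were higher and 2 lower; these 6 of 21 stand beside 23.7% of all genes tested, and nothing particular to the list is read from them. The list's median log2 fold change was 0.06. Among proteases and binders of the classical and lectin pathways and among fluid-phase and membrane regulators, 0 of 10 tested passed in edgeR. At an unadjusted p under 0.05 there were 2, C1s1 and Colec12, and DESeq2 called the same 2 genes.

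C7, a subunit of the membrane pore, was at 5.41, 6.13 and 6.08 normalized counts in sham cultures and 129.9, 85.7 and 104 in EV cultures. The log2 fold change of C7 was 4.16 (SE 0.43, adjusted p = 4.4e-05, edgeR), the largest rise on either list. The other 5 genes that passed were receptors.

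C5ar1, the receptor of the inflammatory fragment C5a, was at 724, 1527 and 1421 normalized counts in sham and 276, 307 and 289 in EV cultures. Its log2 fold change was -2.07 (SE 0.24, adjusted p = 9.8e-05, edgeR), and sham culture 1 was the lowest sham culture, as for C1q. C3ar1, the receptor of C3a, went the other way, at 4636, 5621 and 5976 in sham and 7053, 7192 and 7283 in EV cultures (log2 fold change 0.41, adjusted p = 0.0047, edgeR). The call of C3ar1 was lost without sham replicate 2 (adjusted p = 0.011) or any one of EV replicates 1, 2 and 3 (adjusted p = 0.012, 0.020 and 0.022), and with scaling by library size alone, where its log2 fold change was 0.26 (adjusted p = 0.042). The log2 ratio of C3ar1 to C5ar1 was 2.21 ± 0.42 in sham and 4.63 ± 0.068 in EV cultures, with no overlap (exact permutation p = 0.1, the lowest this design allows; 0.25 adjusted over 5 ratios).

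Cd93, a membrane protein first described as a C1q receptor, fell from 10244 to 11011 normalized counts in sham cultures to 4703 to 5100.1 in EV cultures (log2 fold change -1.11, adjusted p = 6.4e-07, edgeR). Itgam and Itgb2, the chains of complement receptor 3, rose slightly, by log2 0.34 (adjusted p = 0.00052) and 0.36 (adjusted p = 0.00018) in edgeR; 67.2% of the 31-base words of Itgam also occur in the readthrough transcript Gm49368. Cr1l, a membrane regulator like CD55, was at 2671 to 2776 in sham and 2765 to 3001 in EV cultures. The log2 ratio of Cd55 to Cr1l was -0.77 ± 0.095 in sham and 0.53 ± 0.15 in EV cultures, again with no overlap (exact permutation p = 0.1, 0.25 adjusted).

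**Figure D4:**
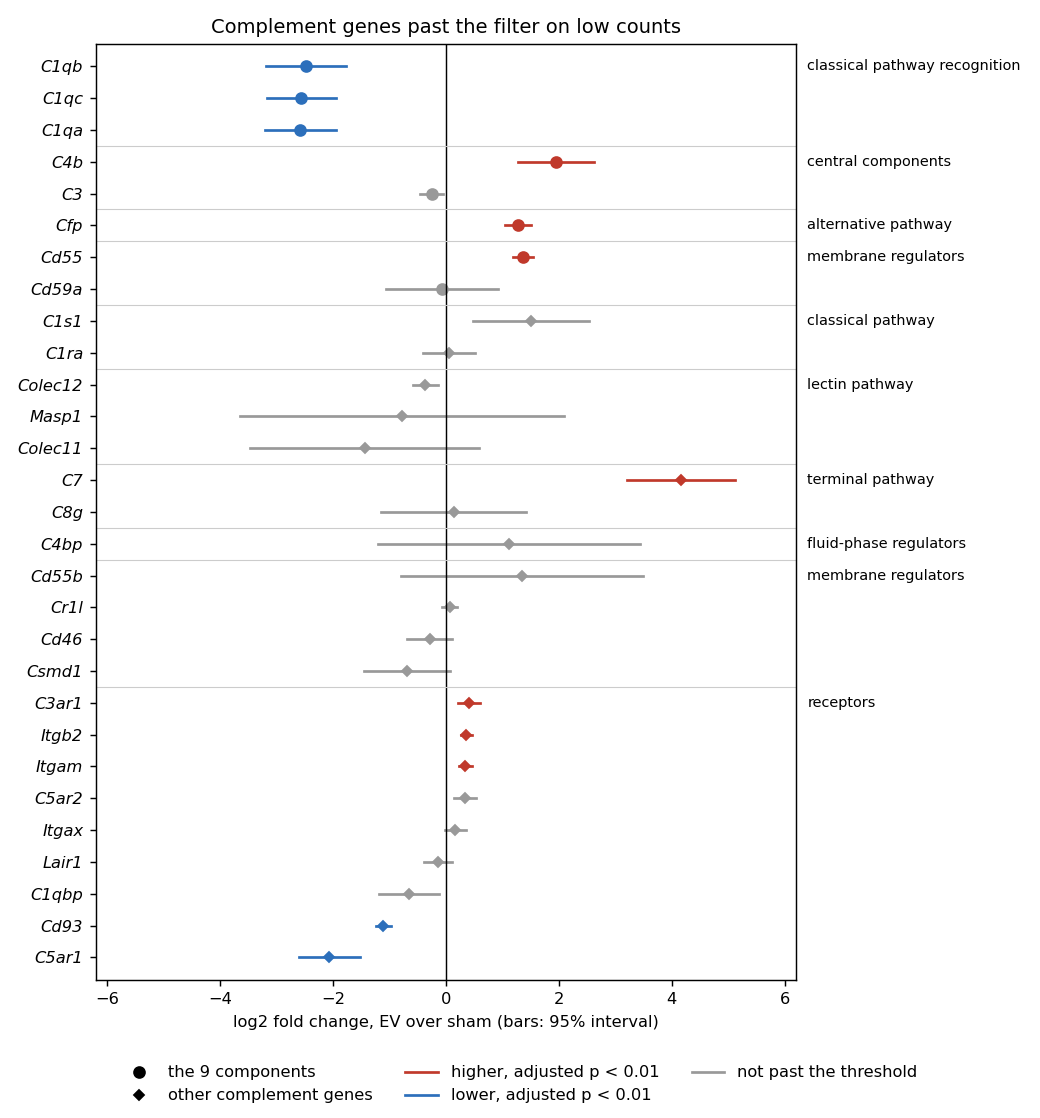
Log2 fold change, EV over sham (horizontal axis), with 95% intervals for the 8 components (circles) and 21 other complement genes (diamonds) that were tested, ordered by role. Red and blue mark an adjusted p under 0.01: the 3 C1q chains, C5ar1 and Cd93 lie to the left and C4b, Cfp, Cd55, C7, C3ar1, Itgb2 and Itgam to the right.

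The calls of the 6 components that passed held under the alternatives that were run. C3 passed in addition with scaling by library size alone. C1qa, C1qb, C1qc, C4b, Cfp and Cd55 kept their direction and passed under each of 12 other fits, with log2 fold changes of 1.63 to 2.35 for C4b, 1.13 to 1.37 for Cfp and 1.21 to 1.43 for Cd55. The widest range among the C1q chains was that of C1qb, -2.73 to -2.19. The plot of fold changes under each alternative shows these ranges beside C3 and Cd59a.

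**Figure D5:**
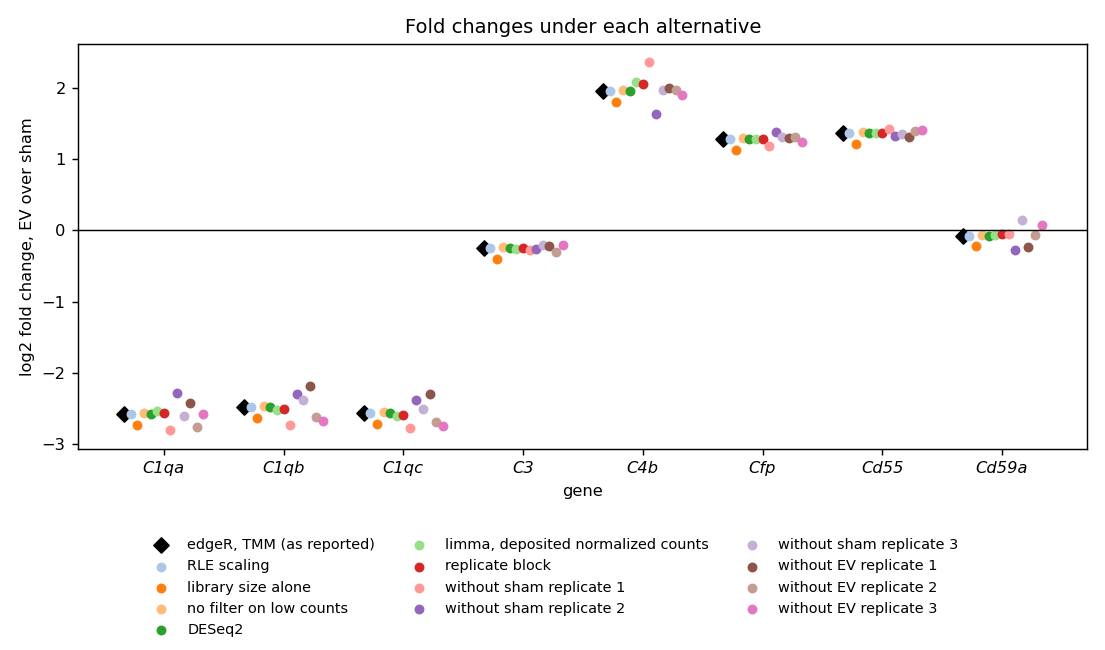
Log2 fold change, EV over sham (vertical axis), of the 8 components tested under the reported fit (black diamonds) and 12 alternatives (coloured points). The points of the C1q chains stay between -2.80 and -2.19, those of C4b, Cfp and Cd55 stay above 1.1, and those of Cd59a fall on both sides of 0.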

How the data were processed

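RNA from 3 sham and 3 EV-treated eosinophil cultures was sequenced after poly(A) selection. Per the labels, the authors trimmed reads with cutadapt and quantified them with Salmon against mm10; versions, annotation and strand setting are not given in the sources used here. The deposited estimated counts per gene, which need not be whole, were rounded to whole numbers. A second deposited table held counts plus 1 divided by DESeq2 size factors, a signal per gene, used only in the limma alternative. Another table held the authors' own fold changes and p-values and was not used.

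The estimated counts were tested with edgeR 4.0.16 (TMM scaling, filterByExpr, quasi-likelihood, group as the only term, R 4.3.3), with Benjamini-Hochberg adjustment over 13498 genes, a threshold of 0.01 and 95% intervals. Ratios within a culture were compared by exact two-sided permutation. The fits were tested on simulated data in which every gene had the same spread beyond counting error. That check does not cover genes as variable as the collagens. Gene positions and exon lengths (all isoforms merged) came from GENCODE vM21 (GRCm38). The number of 31-base words shared with other transcripts was counted in the same annotation. Promoter windows were those of RefSeq (GRCm38.p6) and were found for 6 of the 9 components. Alternatives were RLE or library-size scaling, no filter, DESeq2 1.42.0, limma 3.58.1, a replicate block, other thresholds, and leaving out each culture. Chi-square values per gene between replicates ran from 8.37 to 31.8, so no library was a copy of another.

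The components, the other complement genes and the marker lists were chosen with earlier results of these data known. Genes named beyond the 9 components were the other complement genes past the threshold, near copies, markers with high levels, and the 5 genes most like the C1q trio; Cr1l, C1s1, Colec12, C5ar2, C1qbp and the collagens were named after their values were seen. Some genes of these lists are not reported here. The edgeR p-values set the difference between groups against the spread between these cultures, which is estimated in part from all genes. Whether that spread includes differences between mice is not known.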

Additional observations from a re-analysis of the deposited data

How the results depend on the processing

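The members called numbered 3 higher and 3 lower in edgeR and stayed at 3 higher and 3 to 4 lower under every alternative run. With library size alone in place of TMM, 1036 genes rose and 2342 fell, beside 1632 and 1572, and C3 passed at -0.40. At an adjusted p under 0.05, 2478 genes fell; with a log2 change of at least 1 also required, 419 rose and 857 fell, 1 other complement gene rose and 0 macrophage markers rose. Leaving out each culture gave 1071 to 1833 genes higher and 1018 to 1698 lower; the lowest values came without EV replicate 3, and without EV replicate 2 the lower count was 1044. Over the same fits Cd59a ran from -0.28 to 0.15. Of the other complement genes, 3 fell instead of 2 with library size alone, DESeq2, the replicate block or an adjusted p under 0.05; the added gene was C1qbp in the block fit and Colec12 in the others. Colec12 also passed without sham replicate 3 (adjusted p = 0.0071) and C5ar2 without sham replicate 1 (0.0069), with no filter (0.0089), in DESeq2 (0.0038) and in the block fit (0.0065); the count of other complement genes higher ran from 3 to 6 over the alternatives other than the added fold threshold, while Marco lost its call without any one culture other than EV replicate 2 (adjusted p from 0.014 to 0.040). Cultures with the same replicate number correlated at 0.12, 0.084 and 0.038 in their deviations from the group means, and the other pairs at -0.115 to 0.049. These values do not settle whether the numbers pair the cultures, and the reported fit does not pair them. A replicate block changed no call of the components. In it the SE of C1qb fell from 0.32 to 0.087, while those of C3 and Cd59a rose. With the block 2 macrophage markers rose, the second being Mrc1. The cause of these shifts was not tested. Depth limits Cfb, at 0 to 7 estimated counts, and Cd59a.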
